A study of Rattus norvegicus with 6 samples.

Results

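DEAD box and DEAH box proteins are families of RNA helicases, enzymes that use ATP to open RNA duplexes or to strip proteins from RNA. Here they were taken as every gene of the deposited table whose symbol began with Ddx or Dhx and a digit, leaving out the viral RNA sensors Ddx58, Ddx60 and Dhx58. The rule gave 50 of 32623 genes, 35 with Ddx symbols and 15 with Dhx symbols, and it used no measured value. The cells were rat nucleus pulposus cells, from the gel-like core of the lumbar intervertebral disc of male Sprague-Dawley rats aged 4 weeks, grown to between passages 3 and 5. All cells had received lentivirus for 72 hours, carrying either a short hairpin RNA against Bmal1, the clock transcription factor gene listed as Arntl (shBmal1, 3 libraries), or a hairpin that serves as negative control (shNC, 3 libraries). The labels name neither the hairpin sequences nor the number of hairpins, and whether each library stems from its own culture or animal is left unsaid. P-values therefore measure only the spread between these libraries, which may be technical.

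Each step in the life of an RNA uses its own helicases. Those of the nucleolus remodel ribosomal RNA precursors, those of the spliceosome drive its rearrangements, and others act in export, translation and decay of mRNA. DEAD box proteins mostly open short duplexes locally, whereas DEAH box proteins move along a strand.

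The shNC libraries held 44043803 to 49783710 counts in total, the shBmal1 libraries 8773762 to 11679587. The share of counts on mitochondrial rRNA genes was 0.0330% to 0.0602% in shNC and 0.722% to 1.31% in shBmal1. Depth and this share moved with the group in every library, so their part in the results cannot be told apart from that of the knockdown. Arntl fell from 27.4, 29.7 and 31.7 CPM (counts scaled to library size, with TMM factors) to 2.16, 4.24 and 2.07, a log2 fold change of −3.37 ± 0.26 (SE; adjusted p = 1.17e-05, edgeR). Of the nucleus pulposus markers, Tbxt was at 0 in all 6 libraries and Ca12 was at or near 0, while Acan, Col2a1, Krt8, Foxf1 and Pax1 were detected. The summed level of that marker list was 1341 to 1405 CPM in shNC and 231 to 275 CPM in shBmal1, a sum carried by Acan (648 and 32.8 CPM on average) and Pax1 (527 and 84.9 CPM). Of its 9 tested genes 4 were lower (Acan, Pax1, Krt8 and Col2a1), 1 was higher (Foxf1, 49.5 to 73.0 CPM) and 4 did not pass, among them Sox9 (log2 fold change −0.04). Endothelial markers summed to 0.425 to 1.02 CPM in shNC and 6.87 to 9.91 CPM in shBmal1. Their tested genes, Tek and Vwf, passed the filter on low counts through the shBmal1 libraries alone, which fixed their direction. Leukocyte markers summed to 32.4 to 43.0 CPM against 27.5 to 34.3 CPM, nearly all of it Cd14, which was lower (35.4 to 26.9 CPM). Cd68, the other tested gene of that list, averaged 0.407 CPM in shNC and 2.89 CPM in shBmal1. It too passed the filter through shBmal1 alone, so its direction was fixed. Blood cell markers summed to at most 0.594 CPM in any library. The part of these shifts in the results was not tested, and in bulk RNA fewer cells of a type and less RNA per cell cannot be told apart.

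The protein product of Bmal1 binds, together with CLOCK, the E-box CACGTG, so the promoter windows of the helicase genes were searched for it. A window spans 250 bases before to 50 bases after the start site in RefSeq (GRCr8), the motif is its own reverse complement, and 45 of the 50 genes had a window. It held the motif in 7 of these 45 (15.6%), against 965 of 9889 tested genes (9.76%) and 2148 of 33469 windows in all (6.42%). The 80-base stretches below are printed 5′ to 3′ on the gene's strand, with the E-box in capitals. They show the motif in the genes that passed the test and held it, and, for comparison, the bases just before the start site of the helicase genes with the largest fold changes, whose windows of 300 bases held no match.
Ddx18, chr13:35295973-35296052 (−): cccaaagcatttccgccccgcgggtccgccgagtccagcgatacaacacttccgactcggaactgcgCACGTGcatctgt
Dhx35, chr3:167869865-167869944 (+): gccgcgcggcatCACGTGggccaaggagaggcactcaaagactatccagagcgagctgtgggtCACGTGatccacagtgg
Dhx40, chr10:72118888-72118967 (−): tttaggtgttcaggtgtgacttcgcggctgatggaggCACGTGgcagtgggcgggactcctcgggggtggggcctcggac
Ddx39a, chr19:41331414-41331493 (−): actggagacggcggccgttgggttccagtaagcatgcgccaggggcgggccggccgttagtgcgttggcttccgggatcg
Ddx47, chr4:169576933-169577012 (+): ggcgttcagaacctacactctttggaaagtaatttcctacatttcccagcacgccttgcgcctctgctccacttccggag
The E-box began 13 bases before the start site in Ddx18, 181 and 130 bases before it in Dhx35, and 138 bases before it in Dhx40. The other 4 genes with an E-box were Ddx25, Ddx28 and Dhx33, which were tested and did not pass, and Ddx4, which was not tested. By call, the motif was in 2 of 26 higher genes, 1 of 6 lower genes and 3 of 11 that did not pass. These matches describe letters in a window, not binding.

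With TMM scaling most tested helicase genes were called higher in shBmal1 than in shNC, while on TPM (explained below) 22 of 47 were. The largest role lists, ribosome biogenesis and splicing, gave the most of them with TMM, 13 of 16 and 7 of 9. The smaller list of transcription, microRNA and tRNA functions had 5 of 5. Of the 50 genes 47 had enough counts to be tested, and 28 were higher in shBmal1, 8 were lower and 11 did not pass (edgeR's quasi-likelihood test, Benjamini-Hochberg adjusted p under 0.05 over 14342 genes). Among all genes tested 36.0% were higher and 35.3% lower, against 59.6% and 17.0% of the tested helicase genes. Calls in either direction covered 71.3% of all genes and 76.6% of the helicase genes, so the share called in either direction was near the background. At least 2-fold higher were 17 helicase genes (background 25.4%), and at least 2-fold lower were 2, Ddx3 and Dhx32 (background 21.9%). Ddx3 passed the count filter through the shNC libraries alone, so its place among the lower genes was fixed by the filter and it supports no count of them. The 3 libraries of one group lay wholly apart from those of the other in 29 genes with the higher values in shBmal1 and in 9 with the lower, against a background of 38.2% and 39.1% (77.3% in either direction).

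The median log2 fold change of the tested helicase genes was 0.62, and that of all genes tested was −0.01. The values ran from −2.40 (Ddx3; the next was Dhx32 at −1.15) to 3.29 with an SD of 1.10, compared with an SD of 2.54 over all genes. On TPM, which rescales the deposited FPKM to one total per library, the all-gene median moved to −0.35 and the helicase median to 0.23. The calls were then 22 higher and 12 lower, 64.7% higher against 77.8% with TMM, while over all genes 37.8% of the calls were higher on TPM (4065 higher, 6681 lower) and 50.5% with TMM. Relative to the all-gene median, the helicase median stood at 0.58 on TPM and 0.63 with TMM.

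**Figure D1:**
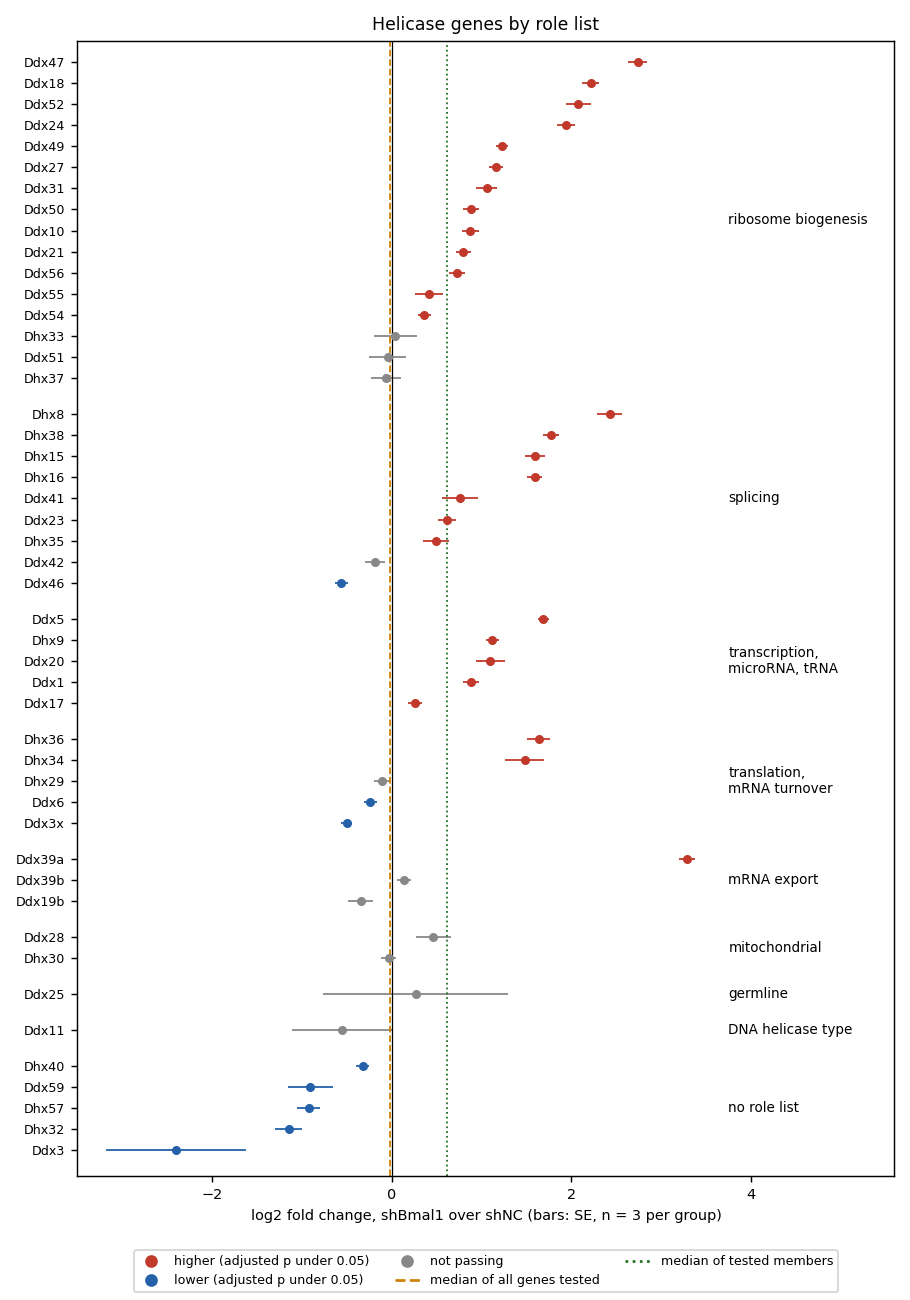
Log2 fold change of each tested helicase gene (x axis, bars are SE, 3 libraries per group), grouped by role. Of 16 ribosome biogenesis genes 13 were higher and none lower, and the 5 genes in no role list were lower, Ddx3 with a direction fixed by the count filter; on TPM Ddx17, Ddx54, Ddx39b, Dhx33 and Ddx25 change sign.

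**Figure D2:**
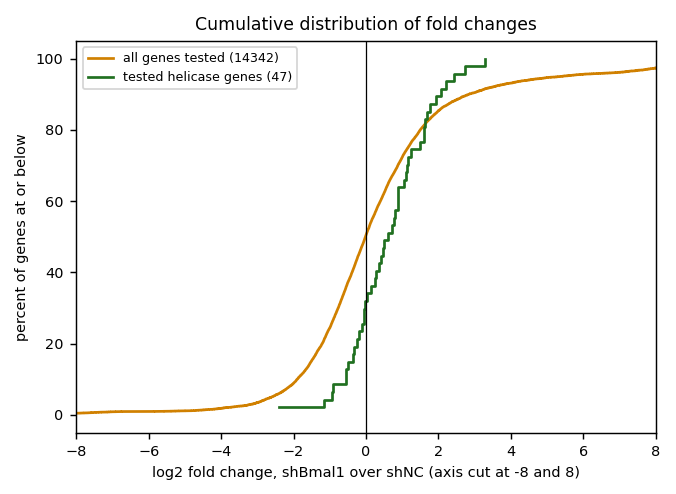
Percent of genes (y axis) at or below each log2 fold change (x axis) for the 47 tested helicase genes and all 14342 genes tested. The helicase curve lies to the right of the other around 0 (medians 0.62 and −0.01). It runs from −2.40 (Ddx3, with a direction fixed by the count filter) to 3.29. The ranges of the curves cannot be compared, since the numbers of genes differ.

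As a share of all counts, the 50 genes made up 0.264%, 0.279% and 0.280% in shNC and 0.554%, 0.614% and 0.610% in shBmal1. The groups did not overlap, and the mean share was 2.16-fold higher in shBmal1. On a scale that accounts for gene length, their summed TPM was 1951 ± 45.1 in shNC and 3302 ± 300 in shBmal1 (SD, n = 3 each), a 1.69-fold difference. The order of levels also differed between the groups. By mean FPKM, which is per gene length, the 5 highest in shNC were Ddx5 (148), Ddx3x (81.7), Ddx1 (52.7), Ddx17 (36.3) and Dhx15 (35.5). In shBmal1 they were Ddx5 (515), Ddx47 (132), Dhx15 (116), Ddx1 (105) and Ddx39a (100). Ddx47 moved from rank 14 to rank 2 and Ddx39a from 25 to 5, while Ddx3x moved from 2 to 8 and Ddx17 from 4 to 12.

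Helicases of ribosome biogenesis formed the largest role list, with 16 genes, all tested. Of these 13 were higher, none was lower and 3 did not pass, with a median log2 fold change of 0.88. The table's own annotation terms were not used for the role lists but hold many of the same genes. All 7 genes listed for rRNA processing were higher, and all of them are among the 13 just counted. Of 19 listed for the nucleolus 14 were higher, 1 was lower and 4 did not pass. Over all genes tested 36.0% were higher and 35.3% lower. Other terms were more mixed. Of 19 genes listed for the cytoplasm 8 were higher, 3 were lower, 7 did not pass and 1 was not tested. Of 5 listed for the cytoplasmic stress granule 2 were higher, 2 were lower and 1 did not pass.

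Ddx47, which acts in early rRNA processing, was at 36.6, 37.2 and 38.4 CPM in shNC and at 213, 256 and 281 CPM in shBmal1. Every shBmal1 library lay far above every shNC library. The gene was 6.68-fold higher in shBmal1 (log2 fold change 2.74 ± 0.11, adjusted p = 3.16e-07, edgeR).

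Ddx18, a factor of large ribosomal subunit assembly whose window carried an E-box, was at 22.9, 24.2 and 22.5 CPM in shNC and 98.6, 120 and 105 CPM in shBmal1. The groups lay well apart, with a 4.65-fold higher level in shBmal1 (2.22 ± 0.09, adjusted p = 4.56e-07, edgeR). Ddx52, needed for the small subunit, was at 17.0, 20.1 and 17.5 CPM against 62.1, 85.9 and 82.5 CPM. Its lowest shBmal1 value came from replicate 1 and still exceeded all shNC values (4.22-fold, adjusted p = 4.96e-06, edgeR). Ddx24, of the large subunit pathway, was at 69.8, 70.0 and 66.3 CPM against 228, 267 and 295 CPM. It too was separate in all libraries and was 3.84-fold higher (adjusted p = 1.04e-06, edgeR).

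The other 9 higher genes of this list had smaller differences, with log2 fold changes from 1.23 (Ddx49) to 0.36 (Ddx54). Ddx27, Ddx31, Ddx10, Ddx56 and Ddx55, all assembly factors of the large subunit or of early precursors, lay between them at 1.16, 1.06, 0.88, 0.73 and 0.41. Ddx55 had the weakest call of the 13, with 11.7, 13.2 and 12.2 CPM against 19.3, 14.3 and 15.9 CPM. Its groups were separate by a narrow margin and its adjusted p was 0.0432 (edgeR), which ran from 0.0596 to 0.136 without any one of the libraries shNC 1, 2 or 3 or shBmal1 1 or 3. On TPM Ddx55 lost its call (0.03) and Ddx54 turned to −0.01. Ddx55 also overlaps Eif2b1 on the opposite strand by 12394 bases, and Eif2b1 was at 31.3 CPM in shNC and 201 CPM in shBmal1. No source used here says whether counting used strand, so reads of the pair cannot be told apart.

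Dhx33 (0.04), Ddx51 (−0.04) and Dhx37 (−0.06), which serve rRNA transcription, the large and the small subunit respectively, did not pass. In Dhx33 the shNC libraries had 14.5, 17.6 and 17.9 CPM and the shBmal1 libraries 14.1, 24.1 and 13.1 CPM. One shBmal1 library stood above all others and the remaining pair below all shNC libraries, so the groups overlapped.

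Spliceosomal helicases numbered 9, of which 7 were higher, 1 was lower and 1 did not pass, with a median of 0.76. On TPM 4 were higher and 2 lower. The log2 fold changes of the higher ones ran from 2.43 (Dhx8) to 0.49 (Dhx35). The table annotates 6 genes to the catalytic step 2 spliceosome, all of them higher, and this term holds Ddx5 beside Ddx23, Ddx41, Dhx35, Dhx38 and Dhx8. Broader terms were mixed. Of 7 genes listed for the spliceosomal complex 5 were higher, 1 was lower (Dhx32) and 1 did not pass. Of 8 listed for mRNA splicing via the spliceosome 6 were higher, 1 was lower (Ddx46) and 1 did not pass.

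Dhx8, which releases the spliced mRNA, was at 37.1, 39.5 and 35.1 CPM in shNC and at 159, 227 and 215 CPM in shBmal1. No shBmal1 value came near the shNC range, and the level was 5.38-fold higher (2.43 ± 0.14, adjusted p = 1.92e-06, edgeR). Dhx38, which remodels the spliceosome between its catalytic steps, was at 45.9, 46.4 and 46.3 CPM against 141, 175 and 158 CPM. The shNC libraries were nearly equal and the shBmal1 libraries lay 3.42-fold above them in the fit (adjusted p = 1.01e-06, edgeR).

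Dhx15, which takes apart spent spliceosomes, was at 103, 118 and 126 CPM in shNC and 300, 369 and 380 CPM in shBmal1. The groups were separate and differed 3.02-fold (adjusted p = 6.47e-06, edgeR). Dhx16, which activates the assembled spliceosome, had the same fitted difference of 3.02-fold, from 31.2 ± 0.823 to 94.2 ± 7.11 CPM (SD, n = 3 each). The table places Dhx16 across 13694 bases of Ppp1r18 on the same strand, and Ppp1r18 was itself at 114 CPM in shNC and 364 CPM in shBmal1, so the division of reads between them is unclear.

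Ddx41, a helicase of the catalytic spliceosome, was at 28.1, 27.9 and 30.2 CPM in shNC and 34.6, 47.1 and 64.2 CPM in shBmal1. All shBmal1 libraries were above shNC but they were widely spread (0.76 ± 0.20, adjusted p = 0.00869, edgeR). Ddx23, which helps bring in the tri-snRNP, and Dhx35 had log2 fold changes of 0.62 and 0.49 with adjusted p of 0.000571 and 0.0168 (edgeR). On TPM Ddx41, Ddx23 and Dhx35 kept their direction and missed the threshold (adjusted p = 0.208, 0.107 and 0.554, limma). Without shNC replicate 1 or without shNC replicate 2 the adjusted p of Dhx35 was 0.0652 and 0.0680 (edgeR).

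Ddx46, which acts when the branch site is first recognised, was the spliceosomal helicase gene that fell. It had 63.3, 60.8 and 65.0 CPM in shNC and 44.6, 40.5 and 43.2 CPM in shBmal1. All shBmal1 values were below all shNC values (−0.56 ± 0.08, adjusted p = 0.000292, edgeR). Ddx42, another factor of that early stage, had overlapping groups and a log2 fold change of −0.19 (adjusted p = 0.174, edgeR), which became −0.55 with a call on TPM (adjusted p = 0.00818, limma).

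All 5 genes grouped under transcription, microRNA and tRNA functions were higher with TMM, with a median of 1.10, and on TPM 4 were higher while Ddx17 turned to −0.11. Ddx5, a coregulator of transcription that also serves microRNA processing, was the most abundant helicase gene in both groups by FPKM. It was at 368, 394 and 387 CPM in shNC and at 1219, 1299 and 1179 CPM in shBmal1. The shBmal1 libraries lay close together and far above shNC (3.22-fold, 1.69 ± 0.06, adjusted p = 2.33e-07, edgeR). Of the summed TPM of all 50 genes, Ddx5 made up 18.1% to 18.5% in shNC and 25.1% to 28.6% in shBmal1. Without Ddx5 the summed TPM of the remaining 49 genes was still 1.51-fold higher in shBmal1.

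Ddx17, its close paralog, was at 160, 171 and 192 CPM in shNC and at 207, 210 and 209 CPM in shBmal1. The groups were separate, but the difference was small (0.26 ± 0.08, adjusted p = 0.0143, edgeR). Without shNC replicate 1 or 2 its adjusted p was 0.0617 and 0.0601 (edgeR). Ddx1, a subunit of the tRNA ligase complex, was at 130, 153 and 146 CPM against 237, 282 and 275 CPM. Its libraries were separate by group (0.89 ± 0.09, adjusted p = 5.40e-05, edgeR).

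Dhx9, known as RNA helicase A, and Ddx20, of the SMN complex that assembles spliceosomal RNPs, had log2 fold changes of 1.12 and 1.10. Dhx9 went from 79.2 ± 1.32 to 173 ± 12.4 CPM and Ddx20 from 12.8 ± 1.12 to 27.5 ± 5.19 CPM (SD, n = 3 each), with separate groups in both.

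Helicases of translation and mRNA turnover moved in both directions. Of 6 genes 5 were tested, 2 were higher, 2 were lower and 1 did not pass, with a median of −0.11. The untested gene was the table's Ddx3y on chromosome 13, listed by its symbol and without a count. Dhx36, which unfolds G-quadruplexes, was at 25.3, 33.8 and 31.3 CPM in shNC and 86.7, 106 and 89.2 CPM in shBmal1. It was separate in all libraries and 3.11-fold higher (adjusted p = 1.25e-05, edgeR). Dhx34, of nonsense-mediated decay, was at 16.4, 14.3 and 11.7 CPM against 42.5, 48.1 and 28.1 CPM. Its shBmal1 libraries varied more but none reached the shNC range (2.79-fold, adjusted p = 0.000411, edgeR).

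Ddx3x, which helps translate mRNAs with structured leaders, was at 414, 413 and 408 CPM in shNC and 295, 305 and 272 CPM in shBmal1. Every shBmal1 library was below every shNC library (−0.50 ± 0.06, adjusted p = 0.000153, edgeR). Ddx6, a helicase of P-bodies that links decapping with repressed translation, was at 73.7, 69.5 and 73.4 CPM against 57.8, 62.1 and 63.8 CPM. The groups were separate and close (−0.24 ± 0.07, adjusted p = 0.0187, edgeR), and its adjusted p was 0.0601 without shNC replicate 1 and 0.0613 without shNC replicate 3. With library totals as the sole scaling Ddx6 stood at −0.08 (adjusted p = 0.373, edgeR). Dhx29, which aids scanning ribosomes, had a log2 fold change of −0.11 and overlapping groups, with 0.05 and 0.06 and no call under library totals and a gene length correction. On TPM it was called lower (−0.46, adjusted p = 0.00532, limma), which made 3 lower calls in this list.

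**Figure D3:**
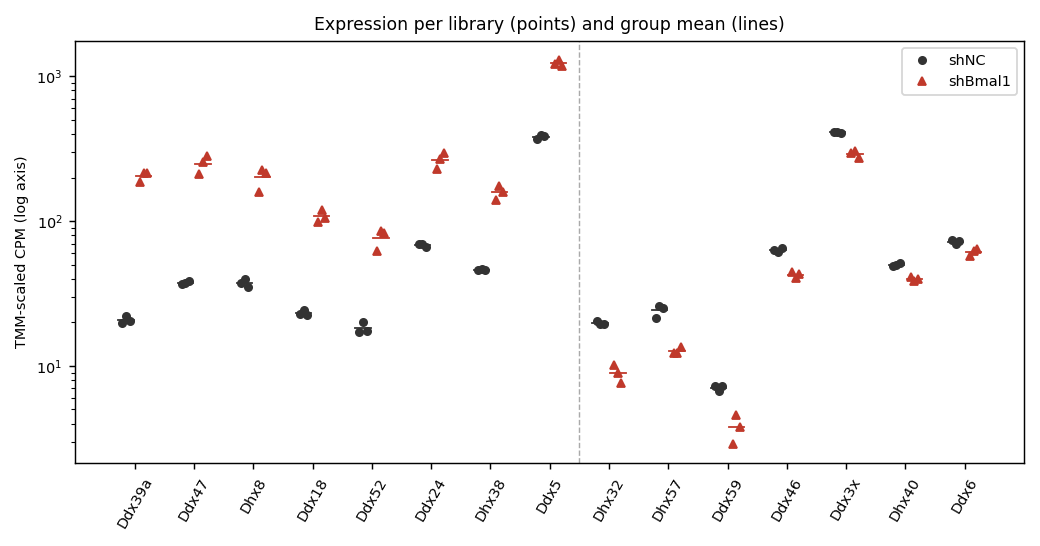
TMM-scaled CPM (log axis) of helicase genes with the largest called rises and falls, left and right of the dashed line, as 3 points per group with the group mean as a line. Genes were drawn only if their groups did not overlap, so the separation seen was set by that choice. Ddx5 reaches 1179 to 1299 CPM in shBmal1. Ddx3, whose direction was fixed by the count filter, is not drawn.

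Of the export helicases, Ddx39a had the largest difference of all helicase genes. This gene, whose protein loads export factors on mRNA as does that of its paralog Ddx39b, was at 19.7, 22.3 and 20.5 CPM in shNC and at 185, 214 and 213 CPM in shBmal1. The groups were far apart (9.81-fold, 3.29 ± 0.09, adjusted p = 6.89e-08, edgeR). Ddx39b, in contrast, was at 141, 150 and 147 CPM in shNC and 143, 167 and 170 CPM in shBmal1. Its groups overlapped and it did not pass (0.13 ± 0.08, adjusted p = 0.166, edgeR), and its value depended on the setting. It was called higher with DESeq2 (0.20, adjusted p = 0.033), and in edgeR with library totals (0.29, adjusted p = 0.0113), with a gene length correction (0.32, adjusted p = 0.0118) and without shBmal1 replicate 1 (0.21, adjusted p = 0.0122). It had no call at −0.24 on TPM and −0.03 on quantile-normalized FPKM. The table lists 3 RT1 class I genes across the whole of Ddx39b on the same strand, so its counts are less certain.

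Ddx19b, which releases mRNA at the nuclear pore, was at 62.1, 62.6 and 61.1 CPM in shNC and 47.4, 39.3 and 59.4 CPM in shBmal1. All shBmal1 values were lower, one of them narrowly, and the gene missed the threshold (−0.35 ± 0.14, adjusted p = 0.0534, edgeR). It passed as lower without shBmal1 replicate 3 (−0.52, adjusted p = 0.00329, edgeR), without a filter (−0.42, adjusted p = 0.0269, edgeR) and on TPM (−0.69, adjusted p = 0.00543, limma), and stood at −0.13 with a gene length correction. It overlaps St3gal2 on the opposite strand by 795 bases, a gene with a log2 fold change of −1.67.

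Paralogs were also compared within each library, where a scale factor per library cancels. The log2 ratio of Ddx39a to Ddx39b FPKM came to −1.55, −1.47 and −1.55 in the shNC libraries, compared with 1.66, 1.65 and 1.61 in shBmal1. Ddx39b was the more abundant of the pair in every shNC library and Ddx39a in every shBmal1 library. The ratio was 8.97-fold higher in shBmal1 (exact two-sided permutation p = 0.1, the smallest that 3 against 3 libraries allow). For Ddx5 over Ddx17 the log2 ratio came to 2.10, 2.10 and 1.91 in the shNC libraries, compared with 3.46, 3.52 and 3.39 in shBmal1. Ddx5 was the more abundant in all 6 libraries, and the ratio was 2.68-fold higher in shBmal1 (exact p = 0.1).

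Ddx21 and Ddx50, nucleolar paralogs that lie 7115 bases apart on chromosome 20 on one strand, both rose. Ddx21 was at 142, 158 and 156 CPM in shNC and 239, 267 and 286 CPM in shBmal1 (0.80 ± 0.08, adjusted p = 5.63e-05, edgeR). Ddx50 was at 41.7, 36.2 and 38.6 CPM against 68.5, 75.6 and 70.8 CPM (0.88 ± 0.09, adjusted p = 3.83e-05, edgeR). In each of them every shBmal1 library lay above every shNC library. Their log2 FPKM ratio came to 0.97, 1.33 and 1.22 in the shNC libraries, compared with 1.01, 1.03 and 1.22 in shBmal1, overlapping between groups, with a difference of −0.09 (exact p = 0.7). RefSeq lists pseudogenes of Ddx21 (9), Ddx5 (3), Ddx18 (2), Ddx6 (2), Ddx3x (1), Ddx41 (1) and Ddx50 (1). Their reads could be shared with the genes. Of further overlaps in the table, Ddx5 shares 100 bases with Cep95 on the opposite strand, a gene at 5.72 CPM in shNC and 7.85 CPM in shBmal1.

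**Figure D4:**
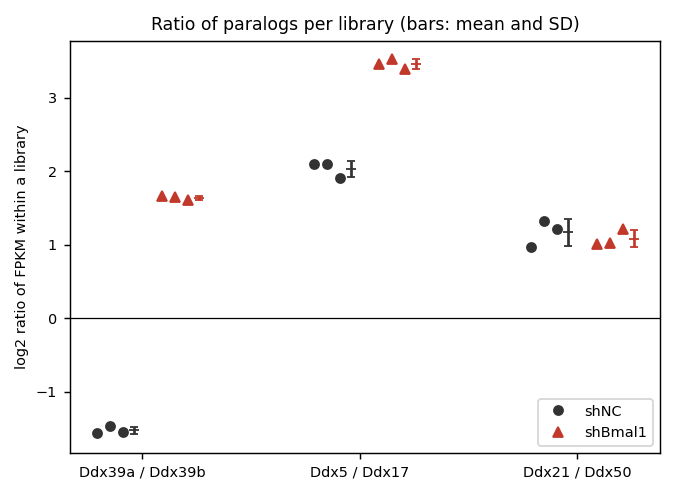
Log2 ratio of FPKM within each library for 3 pairs of paralogs (points per library, bars are mean and SD). Ddx39a over Ddx39b lies between −1.55 and −1.47 in shNC and between 1.61 and 1.66 in shBmal1, while the groups overlap for Ddx21 over Ddx50.

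All 5 genes whose symbols were in no role list fell, the last of them with a direction fixed by the count filter. Dhx32 was at 20.4, 19.4 and 19.4 CPM in shNC and 10.1, 8.98 and 7.62 CPM in shBmal1. The shBmal1 values were all far below shNC (−1.15 ± 0.15, adjusted p = 0.000222, edgeR). Dhx32 overlaps Bccip on the opposite strand by 734 bases, and Bccip had a log2 fold change of 1.14. Dhx57 was at 21.6, 25.9 and 25.0 CPM against 12.3, 12.3 and 13.5 CPM, again without overlap (−0.93 ± 0.13, adjusted p = 0.000289, edgeR).

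Ddx59 was at 7.25, 6.76 and 7.24 CPM in shNC and 2.91, 4.57 and 3.81 CPM in shBmal1. The groups were separate at a low level (−0.91 ± 0.25, adjusted p = 0.0111, edgeR). Dhx40, whose window carried an E-box, was at 48.7, 49.7 and 51.0 CPM against 41.2, 38.4 and 39.7 CPM. It had the smallest difference of the 5, with separate groups (−0.32 ± 0.07, adjusted p = 0.00479, edgeR), and missed the threshold with library totals as the sole scaling (−0.16, adjusted p = 0.0896, edgeR).

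The fifth, the gene the table calls Ddx3, lies on the Y chromosome there (1217800 to 1238420, reverse strand), and the table's Ddx3y lies on chromosome 13. RefSeq gives these symbols the other way round, so the Y-linked gene is described under the table's name. Role lists were matched by symbol, so the translation and turnover list took the chromosome 13 gene and the Y-linked gene fell outside all lists. It had 64, 83 and 78 counts in shNC and 0, 7 and 4 in shBmal1, that is 1.44, 1.76 and 1.85 CPM against 0, 0.571 and 0.331 CPM. It passed the count filter through the shNC libraries alone, which fixed its direction (−2.40 ± 0.78, adjusted p = 0.0233, edgeR). Its adjusted p was 0.0624, 0.0660 and 0.0533 without shNC replicate 2, shNC replicate 3 or shBmal1 replicate 3 (edgeR). The Y-linked genes Eif2s3y and Kdm5d had log2 fold changes of −1.51 and −1.45 and did not pass (adjusted p = 0.189 and 0.191, edgeR). Both also passed the count filter through the shNC libraries alone, so their direction was fixed as well. Usp9y, also Y-linked, had no count in any library.

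The remaining helicase genes were low or did not pass. Of the mitochondrial pair, which serve the ribosome of that organelle, Dhx30 was at 50.1 ± 1.74 and 49.1 ± 3.47 CPM and Ddx28 at 7.91 ± 0.283 and 10.9 ± 1.95 CPM in shNC and shBmal1 (SD, n = 3 each). Dhx30 did not pass (−0.03) and was called lower on TPM (−0.39, adjusted p = 0.00451, limma). Ddx28 was higher in every shBmal1 library and missed the threshold (0.46 ± 0.19, adjusted p = 0.0594, edgeR), which it passed without shBmal1 replicate 3 (0.61, adjusted p = 0.0144, edgeR) and in 5 other settings. These were DESeq2 (adjusted p = 0.0206), edgeR with RLE factors (0.0378), library totals (0.0189) or a length correction (0.0450), and quantile-normalized FPKM in limma (0.0158), while on TPM it stood at 0.07. Ddx11, a DNA helicase of sister chromatid cohesion, had 0.539, 1.14 and 2.73 CPM in shBmal1 and 1.98 to 2.40 CPM in shNC, with overlapping groups and no call (−0.55 ± 0.56, adjusted p = 0.406, edgeR), and came to −1.35 with a call without shBmal1 replicate 3 (adjusted p = 0.0381, edgeR). Of the germline genes, Ddx25 had at most 58 counts in a library with overlapping groups, and Ddx4 had no count in any library. Ddx43 had 0, 4 and 0 counts in shNC and 31, 6 and 0 in shBmal1 and was not tested, and the table's Ddx3y had none. A count of 0 allows up to 3 counts, which is 0.0637 to 0.0712 CPM in a shNC library and 0.245 to 0.323 CPM in a shBmal1 library, counting error alone considered.

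Helicases of the same superfamily under other symbols were also higher where tested (4 of 4, and 3 of 4 on TPM). Eif4a3, of the exon junction complex, went from 81.6 ± 1.48 to 260 ± 29.0 CPM (SD, n = 3 each). The translation initiation helicases Eif4a2 and Eif4a1 went from 157 ± 8.36 to 468 ± 65.3 and from 295 ± 5.97 to 672 ± 100 CPM. Ythdc2, of meiotic RNA control, went from 8.33 ± 1.84 to 12.9 ± 2.14 CPM (adjusted p = 0.0358, edgeR) and Tdrd9 was at 0 in all libraries. Both Eif4a genes of translation initiation rose, whereas Ddx3x fell.

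Of 32 table rows of known helicase partners, 15 were higher, 8 were lower and 9 did not pass, with a median of 0.29. Calls in either direction covered 71.9% of them, near the 71.3% of all genes tested. Higher were 46.9% (background 36.0%) and lower 25.0% (background 35.3%). The higher ones with the smallest p were Tfip11, the activator of Dhx15 (34.5 to 268 CPM, 2.96), Alyref, an export adaptor (47.6 to 202, 2.09), Rbm8a of the exon junction complex (37.2 to 201, 2.44) and Gle1, the activator of the pore helicase (13.2 to 73.3, 2.48). The lower ones with the smallest p were Dgcr8 of the Microprocessor (35.7 to 11.9, −1.59) and Eif4h, a cofactor of the initiation helicases (290 to 181, −0.68). With them came Lsm14b (20.3 to 6.40, −1.67) and the scaffold gene Eif4g3 (174 to 124, −0.48). Related partners went both ways. Of the exon junction complex Magoh was higher (1.93) and Casc3 lower (−0.74), and Lsm14a was higher (0.86), unlike Lsm14b.

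**Figure D5:**
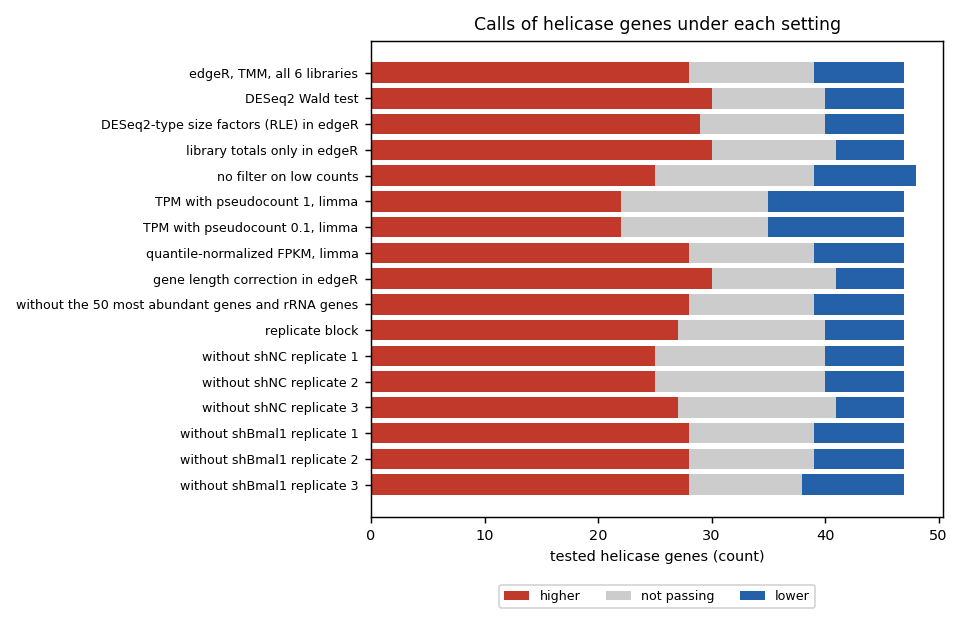
Number of tested helicase genes called higher, lower or not passing (x axis) under each way of processing and with each library left out (y axis). The higher calls number 22 to 30 and the lower calls 6 to 12, with the fewest higher calls on TPM.

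Across these settings 22 of the 28 higher genes and 5 of the 8 lower genes kept both direction and call, as the bars of calls per setting show in number. The 5 lower ones were Ddx3x, Ddx46, Ddx59, Dhx32 and Dhx57. The 6 higher genes that did not keep them were Ddx17, Ddx23, Ddx41, Ddx54, Ddx55 and Dhx35.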

How the data were processed

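For every gene and library the authors deposited a raw count of reads and an FPKM value, which scales fragments by gene length and depth, per the file headers. Where the count is 0 the deposited FPKM is 1e-04. The submitters' processing notes name edgeR, DESeq2, StringTie 1.3.4d, HISAT2 2.0.4 and cutadapt 1.9 without their roles. No source used here gives the genome build, annotation release, counting program or use of strand. Per the labels' protocols, RNA selected for poly(A) was sequenced as read pairs.

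Groups and replicate numbers come from the sample titles. Members, role lists, markers and the rule for named genes were chosen with earlier results of these data known. Counts were filtered with filterByExpr (at least 10 counts, 15 in total), scaled by TMM (factors 0.936 to 0.956 in shNC, 1.05 to 1.06 in shBmal1) and fitted without a block in edgeR 4.0.16 (glmQLFit, glmQLFTest, R 4.3.3), with Benjamini-Hochberg adjustment over 14342 genes at 0.05. The procedure was tested on simulated data. That simulation changed only a small part of the genes, whereas 71.3% of all genes tested were called here. It therefore does not show how the procedure works with changes this broad. The SE of a log2 fold change in edgeR was derived as its absolute value divided by the square root of the F statistic. Of the helicase genes, 45 passed the filter in both groups, 1 through shNC alone and 1 over libraries of both groups. Values in full are given for the 8 largest called rises and falls whose groups are separate and whose higher group averages 1 CPM or more, the 5 highest FPKM in shNC, paralog pairs, and calls in a direction held by 3 or fewer genes of a role list. Partners and other helicases are named by smallest p, up to 4 per direction. Other helicase, partner and marker genes whose values are given were chosen after their values were seen. For paralog ratios an exact permutation test, two-sided, was used.

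Alternatives were DESeq2 1.42.0, other scalings, no filter, TPM (pseudocount 1 or 0.1) and quantile-normalized FPKM in limma 3.58.1, a gene length correction, leaving out the 50 most abundant genes and rRNA genes, a replicate block, and leaving out each library. The number of counts sets the precision, and shNC libraries were 4.44-fold deeper on average. Libraries of one group differed by more than sampling noise (chi-square over degrees of freedom 11.2 to 25.2 per pair). Promoter windows were matched by symbol for 45 of 50 genes; the protein comparison of paralogs was not analysed here.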

Additional observations from a re-analysis of the deposited data

How the results depend on the processing

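With each library left out in turn, 25 to 28 helicase genes were higher and 6 to 9 lower, the median ran from 0.54 to 0.74 and its distance to the all-gene median from 0.55 to 0.76 (the highest of both without shBmal1 replicate 1). Export helicases were then 1 to 2 higher and 0 to 1 lower, and translation and turnover helicases 1 to 2 lower. The labels' replicate numbers were shared across groups, but same-numbered libraries did not deviate together (correlations −0.07, 0.01 and 0.03). With a replicate block, 27 helicase genes were higher and 7 lower, and 4663 and 4752 of all genes. The helicase median moved to 0.78 with library totals, 0.75 with a length correction, 0.46 on quantile-normalized FPKM, and 0.23 and 0.24 on TPM with pseudocounts 1 and 0.1. Its distance to the all-gene median was 0.29 without a filter and 0.75 with the length correction. Export helicases had 2 higher calls with DESeq2, library totals and the length correction, and 1 lower call without a filter and on TPM. Translation and turnover helicases had 1 lower call with DESeq2, RLE factors, library totals and the length correction. Splicing helicases had 4 higher and 2 lower calls on TPM. The log2 fold change of Ddx39a minus that of Ddx39b, 3.16, was 3.11 on TPM, 3.00 on quantile-normalized FPKM and 3.03 with the length correction, and that of Ddx5 minus that of Ddx17, 1.42, was 1.03 on quantile-normalized FPKM. The cause of these shifts was not tested.

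Of the called genes Ddx17 (−0.11 with both pseudocounts) and Ddx54 (−0.0062 and −0.0064) changed sign, both on TPM alone. Genes without a call changed sign as follows. Ddx51 came to 0.019 with DESeq2, 0.017 with RLE, 0.020 on quantile-normalized FPKM, 0.12 with library totals and 0.073 with the length correction, and lay between −0.15 and 0.080 with a library left out. Dhx30 came to 0.028 with DESeq2, 0.029 with RLE and 0.13 with library totals or the length correction, and lay between −0.073 and 0.025 with a library left out. Dhx29 came to 0.050 and 0.061 with library totals and the length correction. Dhx37 came to 0.10 with library totals, 0.11 with the length correction and 0.0028 on quantile-normalized FPKM, and lay between −0.24 and 0.10 with a library left out. Dhx33 came to −0.033 without a filter, −0.35 and −0.38 on TPM and −0.0070 with the block, and lay between −0.29 and 0.20 with a library left out. Ddx25 came to −0.15 and −0.75 on TPM, −0.19 on quantile-normalized FPKM and −0.21 with the block, and lay between −0.66 and 0.82 with a library left out. Ddx39b came to −0.24 on TPM and −0.031 on quantile-normalized FPKM. Dhx29, Dhx30, Ddx19b and Ddx42 gained a lower call on TPM. The lower depth of shBmal1 limits what can be said of genes at a few counts.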
